A study of Rattus norvegicus with 8 samples.

Results

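The genes described here are 3 members of the small heat shock protein family: Hspb1 (ENSRNOG00000023546), Cryab (ENSRNOG00000010524) and Hspb8 (ENSRNOG00000022392). They are 3 of the 32883 Ensembl rat gene identifiers in the deposited table, and all 3 were among the 4159 genes with enough molecules to be tested. Hspb1 was chosen by its higher counts after injury in these same libraries, and Cryab and Hspb8 were taken as relatives in which to ask whether that rise is shared. The injury contrast therefore describes the members and is no independent evidence about them.

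The tissue was the lower lumbar part of the spinal cord, and the animals were outbred Sprague Dawley rats. The injured group holds 4 libraries collected 4 days after a hemisection, a cut through one side of the cord, at thoracic level 9. The uninjured group holds 4 libraries without such an injury. The lumbar segment lies below the cut and was itself not cut, and the series asks how injury changes gene expression there. The labels give no genotype, transgene, drug, age or sex, and do not say whether uninjured rats had a sham operation, which side was sampled, or whether each library is a separate animal. Any p-value then measures only the spread between these libraries, which may be technical.

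Small heat shock proteins share a conserved alpha-crystallin domain and assemble into oligomers that hold unfolding proteins in a soluble state without using ATP. Other chaperones, among them Hsp70, then refold the clients or pass them on for degradation. In the nervous system Hspb1 (Hsp25 or Hsp27 in older usage) is known for binding actin and intermediate filaments and for its presence in motor neurons and in astrocytes after damage. Cryab, alpha-B-crystallin, is a lens protein that oligodendrocytes and astrocytes also make. Hspb8 works with the co-chaperone Bag3 in the removal of aggregated proteins by autophagy. Inherited changes in Hspb1 and in Hspb8 are known causes of motor neuropathy.

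Depth was low and uneven: libraries held between 119808 and 405537 molecules, and 3 molecules corresponded to 7.40 to 25 CPM of a library's total. In each group the library numbered 3 was the shallowest, and results are given with and without them. Levels below are CPM (counts relative to one fixed total over the tested genes), after scaling by TMM, a method that equalises libraries on the bulk of their genes. CEL-Seq2 counts 1 tag at the 3′ end of each captured transcript, so levels were not divided by gene length. In bulk tissue, fewer cells of a type and less RNA per cell cannot be told apart.

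Promoter sequence is shown because heat shock factors bind inverted repeats of the unit GAA, and it allows the 2 members found in the RefSeq promoter table to be compared. The window was the 250 bases before the start site that the table, in build GRCr8, uses for each gene. For Hspb1 this is the first base of the annotated gene, but for Hspb8 it lies 1409 bases inside the annotated gene span, so the Hspb8 window is not the sequence before the whole gene. It was searched for GAANNTTC and TTCNNGAA, each of which reads the same on both strands. Hspb1 had 2 matches, at positions -129 to -122 and -109 to -102 counted from that start site, and Hspb8 had 1, at -23 to -16. One match of Hspb1 and the match of Hspb8 had the same 8 letters, GAAGTTTC. Of 33469 promoter windows of this length, 13.5% held at least 1 of the 2 motifs and 1.22% held GAAGTTTC on either strand. GAAGTTTC was singled out because both windows held it, so its share does not measure how unusual the sharing is. Neither window held the longer run of 3 alternating units (GAANNTTC followed by NNGAA, or TTCNNGAA followed by NNTTC), which 0.663% of windows held. The share of windows with 2 matches, as in Hspb1, was not counted. A match is a run of letters and not a measured binding site. The Hspb1 window lies at chr12:26432302-26432551 on the minus strand and is printed 5′ to 3′ with both matches in capitals. The 30 bases around the shared match follow for both genes, again with the match in capitals. The Hspb8 stretch lies in the window chr12:45837058-45837307 on the plus strand.
Hspb1 window: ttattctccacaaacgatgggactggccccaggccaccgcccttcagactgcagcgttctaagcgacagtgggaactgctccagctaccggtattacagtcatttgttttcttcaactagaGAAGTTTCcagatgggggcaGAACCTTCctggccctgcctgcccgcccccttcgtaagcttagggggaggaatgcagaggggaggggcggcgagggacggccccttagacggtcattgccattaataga
Hspb1 stretch: cttcaactagaGAAGTTTCcagatgggggc
Hspb8 stretch: agaagccaggaGAAGTTTCtaggcgcgtga

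Hspb1 was higher in all 4 injured libraries than in any uninjured library, at 4.39 times the uninjured level. Its counts were 91, 123, 72 and 194 molecules in uninjured replicates 1 to 4 and 734, 877, 172 and 734 in injured replicates 1 to 4. In CPM these were 234, 542, 834 and 465 without injury against 2028, 2343, 1340 and 3096 after it. The lowest injured library was replicate 3 and the highest uninjured library was also replicate 3, so the groups come closest at that number. Means were 519 ± 248 CPM without injury and 2202 ± 728 CPM with it (SD, n = 4 each). The fitted log2 fold change was 2.13 (standard error 0.34), a fold of 4.39 with a 95% interval from 2.65 to 7.26.

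The size of the Hspb1 difference varied between libraries carrying the same number. The injured level was 8.67, 4.32, 1.61 and 6.65 times the uninjured level for numbers 1 to 4. Number 3 thus gave the smallest difference, from a high uninjured and a low injured value. Without both libraries numbered 3, means were 414 ± 160 and 2489 ± 549 CPM (SD, n = 3 each), and the fitted fold was 6.04 (95% interval 3.74 to 9.77). The uninjured library numbered 3 also had 24.6% of its molecules in its 10 most abundant genes and the injured one 18.5%, against 8.88% to 13.3% in the other 6. The part of that difference in the Hspb1 values was not tested.

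Cryab was about as abundant as Hspb1 without injury, and its levels overlapped between the groups. Its counts were 272, 171, 46 and 191 molecules in uninjured replicates 1 to 4 and 327, 394, 71 and 136 in the injured ones. In CPM these were 699, 753, 533 and 458 without injury and 903, 1053, 553 and 574 after it. Injured replicates 3 and 4 fell within the uninjured range, and injured replicates 1 and 2 lay above it. Means were 611 ± 138 CPM and 771 ± 247 CPM (SD, n = 4 each). The fitted fold was 1.27 with a 95% interval from 0.865 to 1.86 (log2 fold change 0.34, standard error 0.26), and Cryab did not pass the threshold.

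Cryab levels also sorted by replicate number. In both groups numbers 1 and 2 were above numbers 3 and 4. All 4 libraries numbered 1 or 2 held 699 to 1053 CPM and all 4 numbered 3 or 4 held 458 to 574. This grouping was seen in the values and was not tested. The injured library was the higher one of each pair with the same number, by 1.29, 1.4, 1.04 and 1.25 times.

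Hspb8 was the scarcest of the 3 genes in every library, and its injured libraries lay above the uninjured ones by a narrow margin. Its counts were 38, 22, 8 and 46 molecules in uninjured replicates 1 to 4 and 46, 47, 25 and 52 in the injured ones. In CPM these were 97.7, 96.9, 92.7 and 110 without injury and 127, 126, 195 and 219 after it. The highest uninjured value, 110 CPM from 46 molecules, and the lowest injured value, 126 CPM from 47 molecules, have exact 95% Poisson intervals of 33.7 to 61.4 and 34.5 to 62.5 molecules, which overlap. Means were 99.4 ± 7.63 CPM and 167 ± 47.7 CPM (SD, n = 4 each). The fitted fold was 1.62 with a 95% interval from 1.10 to 2.39 (log2 fold change 0.69, standard error 0.27), and Hspb8 did not pass the threshold.

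The Hspb8 difference was also uneven over the numbers, in the opposite order to Cryab. The injured level was 1.3 times the uninjured one for numbers 1 and 2, and 2.10 and 1.99 times for numbers 3 and 4. Uninjured replicate 3 rested on 8 molecules, with an exact 95% Poisson interval from 3.45 to 15.8, so its ratio has a wide counting error. Poisson intervals cover counting error only.

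**Figure D1:**
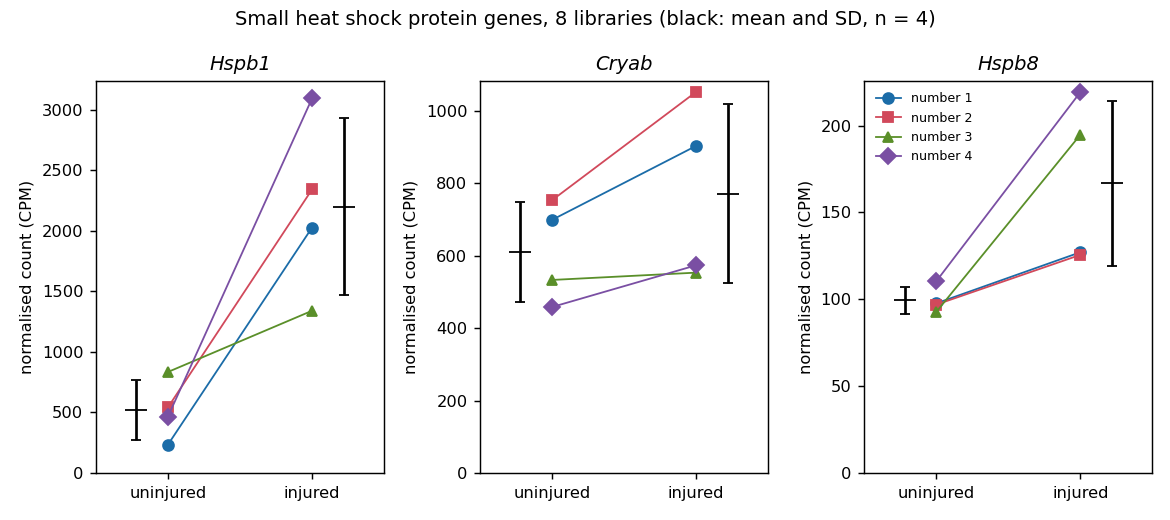
Normalised counts (CPM, linear axes from 0) of Hspb1, Cryab and Hspb8 in uninjured and injured libraries, with lines joining libraries of the same number and black bars for the mean and SD of 4 libraries. Hspb1 runs from 234 to 834 CPM without injury and from 1340 to 3096 CPM after it, Cryab overlaps between the groups, and Hspb8 is separated by a margin from 110 to 126 CPM.

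By edgeR's quasi-likelihood test across all 4159 genes, with a Benjamini-Hochberg adjusted p under 0.05, 1 of the 3 genes was called higher: Hspb1. Over all tested genes 0.986% were called higher. Because Hspb1 was picked for its rise, its place in this count and in the counts below describes the choice. In 2 of the 3, Hspb1 and Hspb8, the lowest injured CPM exceeded the highest uninjured CPM, where 3.08% of tested genes did. All 3 were higher in the injured library at all 4 numbers, where 10.7% of tested genes were. The median log2 fold change was 0.69 over the 3 genes, which is the value of Hspb8 itself, and -0.01 over all tested genes. Among the 287 genes with an uninjured level within 1.5-fold of Cryab, 27 had a larger log2 fold change. Among the 1299 genes within 1.5-fold of Hspb8, 47 did. Neither gene passed the threshold, yet both lay above most tested genes in fold change.

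Libraries with the same number deviated together across genes, so the number was also fitted as a block. This was least clear at number 3 (r = 0.17), because r reached 0.24 between libraries of different numbers. With the replicate block the fold was 4.67 (95% interval 2.55 to 8.54) for Hspb1, 1.26 (1.01 to 1.57) for Cryab and 1.59 (1.16 to 2.17) for Hspb8. Hspb1 was again the 1 gene of 3 called higher, where this fit called 2.26% of tested genes higher. With the block and without both libraries numbered 3, 2 of the 3 genes were called, where 5.84% of tested genes were. Hspb1 then had a fold of 6.26 (5.02 to 7.81). Cryab passed with a fold of 1.31 (1.10 to 1.58), and Hspb8 missed the threshold at 1.52 (1.13 to 2.06). Within numbers 1 and 2 alone, Hspb1 was the 1 gene called, at a fold of 5.80, where 1.72% of tested genes were called. Within numbers 3 and 4 alone none of the 3 was called by edgeR, where 0.0930% of tested genes were called. Hspb1 had a fold of 3.47 there, and 2 of the 3 genes, Hspb1 and Hspb8, had an unadjusted p under 0.05, where 2.45% of tested genes had one and were higher. No other tool was run on those 4 libraries.

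**Figure D2:**
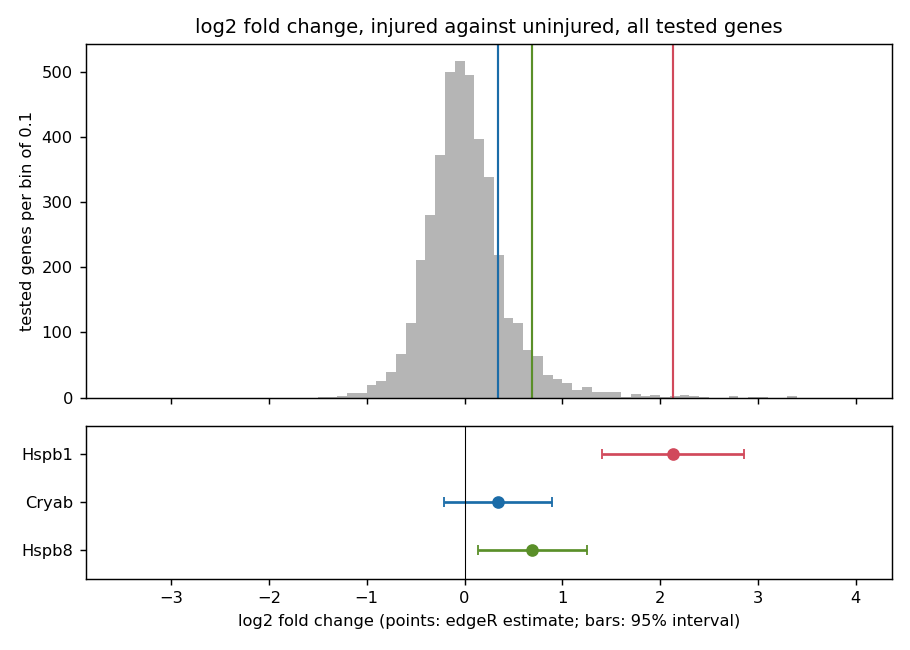
Top: number of tested genes (y axis) by log2 fold change of injured against uninjured libraries (x axis, bins of 0.1), with a coloured line for each of the 3 genes. Bottom: the edgeR estimate and 95% interval of each gene on the same axis. Cryab at 0.34 and Hspb8 at 0.69 lie to the right of most genes, at percentiles 83.9 and 94.3 of the fold changes, and Hspb1 at 2.13 lies in the thin upper tail at percentile 99.6.

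The ratio of 2 genes within a library does not depend on the library's scaling, and it shows how far the genes moved together. It is not fully free of depth, because high counts are compressed more than low ones, as described below for the random identifiers. Hspb1 had 0.335, 0.719, 1.57 and 1.02 molecules per molecule of Cryab in uninjured replicates 1 to 4, and 2.24, 2.23, 2.42 and 5.40 in the injured ones. The groups did not overlap in this ratio. Its mean log2 value was -0.35 ± 0.94 without injury and 1.5 ± 0.62 after it (SD, n = 4 each), so that Hspb1 gained 3.61-fold on Cryab. The gain was positive at all 4 numbers and smallest at number 3, with log2 differences of 2.74, 1.63, 0.63 and 2.41.

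Against Hspb8, Hspb1 had 2.39, 5.59, 9 and 4.22 molecules per molecule in uninjured replicates 1 to 4, and 16, 18.7, 6.88 and 14.1 in the injured ones. Here the groups overlapped, because at number 3 the injured ratio was lower than the uninjured one. The log2 difference was 2.73, 1.75, -0.33 and 1.74 for numbers 1 to 4, with a mean of 1.47. Without the libraries numbered 3 the ratios of the groups did not overlap. At that number Hspb8 had 8 and 25 molecules, so its part in the exception rests on few counts. The Hspb1 difference was also smallest there, at 1.61 times the uninjured level.

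Cryab and Hspb8 differed less in their change. Their ratio was 7.16, 7.77, 5.75 and 4.15 in uninjured replicates 1 to 4 and 7.11, 8.38, 2.84 and 2.62 in the injured ones. The groups overlapped. The mean log2 difference was -0.38, and by number it was -0.01, 0.12, -0.96 and -0.66. Numbers 1 and 2 thus showed nearly the same ratio in both groups, and numbers 3 and 4 a lower one after injury. These ratios use the same contrast as the choice of Hspb1 and were not tested.

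**Figure D3:**
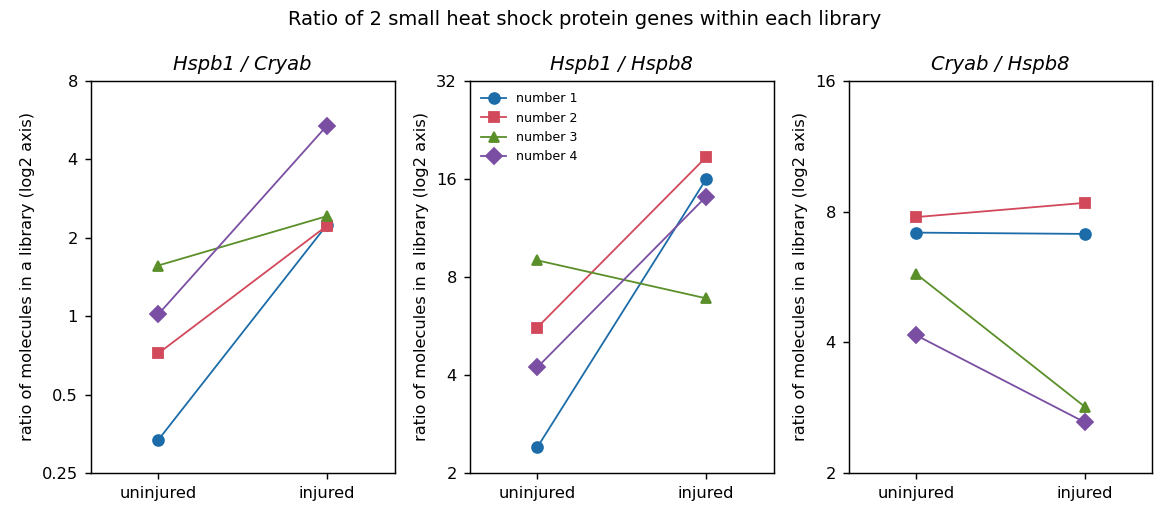
Ratio of molecules of 2 genes within each library (y axes, log2 scale) in uninjured and injured libraries, with lines joining libraries of the same number. Hspb1 to Cryab is 0.335 to 1.57 without injury and 2.23 to 5.40 after it, Hspb1 to Hspb8 falls at number 3 alone, and Cryab to Hspb8 overlaps between the groups.

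Counted as 1 pool, the 3 genes held 1229 ± 229 CPM without injury and 3139 ± 779 CPM after it (SD, n = 4 each). Hspb1 accounted for 88.1% of the difference between these means, Cryab for 8.37% and Hspb8 for 3.52%. The make-up of the pool shifted with it. Hspb1 was 40.9% ± 14.3 of the molecules of the 3 genes in uninjured and 69.2% ± 7.05 in injured libraries (SD, n = 4 each), with no overlap between the highest uninjured share of 57.1% and the lowest injured share of 64.2%. The share of Cryab was 50.7% ± 13.5 in uninjured and 25.2% ± 7.11 in injured libraries, while its mean CPM was the higher one after injury.

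Among all tested genes, Hspb1 and Cryab were abundant without injury and Hspb8 was near the middle. Their mean uninjured levels lay at percentiles 92.5, 93.7 and 56.0, and the median tested gene stood at 86.3 CPM. In injured libraries 48 tested genes had a higher mean than Hspb1, against 313 in uninjured ones. Of the 41 genes called higher, 14 had a larger log2 fold change than Hspb1. Hspb1 had the highest injured level of the 41 and the second highest uninjured level. It made up 9.63% to 15.8% of their molecules in injured libraries and 6.91% to 12.1% in uninjured ones, so these shares overlapped. The difference in mean CPM was larger for 2 other tested genes.

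Spread within a group is not fixed by the injury contrast. The coefficient of variation of CPM was 47.7% in uninjured and 33.1% in injured libraries for Hspb1, 22.6% and 32.1% for Cryab, and 7.67% and 28.6% for Hspb8. With all 4 libraries a group, these coefficients thus differed most without injury and were close to each other after it. Without the libraries numbered 3, injured levels were 2489 ± 549 CPM for Hspb1, 843 ± 245 for Cryab and 157 ± 53.7 for Hspb8 (SD). Relative to the mean, the spread was then smallest for Hspb1 and largest for Hspb8, so the closeness depended on those libraries. Scatter relative to counting noise, as chi-square per degree of freedom where 1 is counting noise alone, was 25.2 in uninjured and 43.1 in injured libraries for Hspb1. It was 9.79 and 18.1 for Cryab. For Hspb8 it was 0.163 and 3.86, so its uninjured libraries scattered no more than their counts allow. The uninjured coefficient of 7.67% for Hspb8 thus rests on few molecules and does not show a steadier gene. The dispersion fitted by edgeR lay at percentile 91.0 of tested genes for Hspb1, 70.7 for Cryab and 39.2 for Hspb8. The chi-square grows with the number of molecules at equal relative spread, so it does not order the genes or the groups by variability.

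Each random identifier can be counted only once per gene in a library, so very high counts are compressed. The highest member count was 877 for Hspb1, in injured replicate 2, and a correction that assumes identifiers of 6 bases adds 12.5% to it. The correction adds 5.14% to the highest count of Cryab and 0.640% to that of Hspb8. With it, the Hspb1 fold was 4.70 in place of 4.39.

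**Figure D4:**
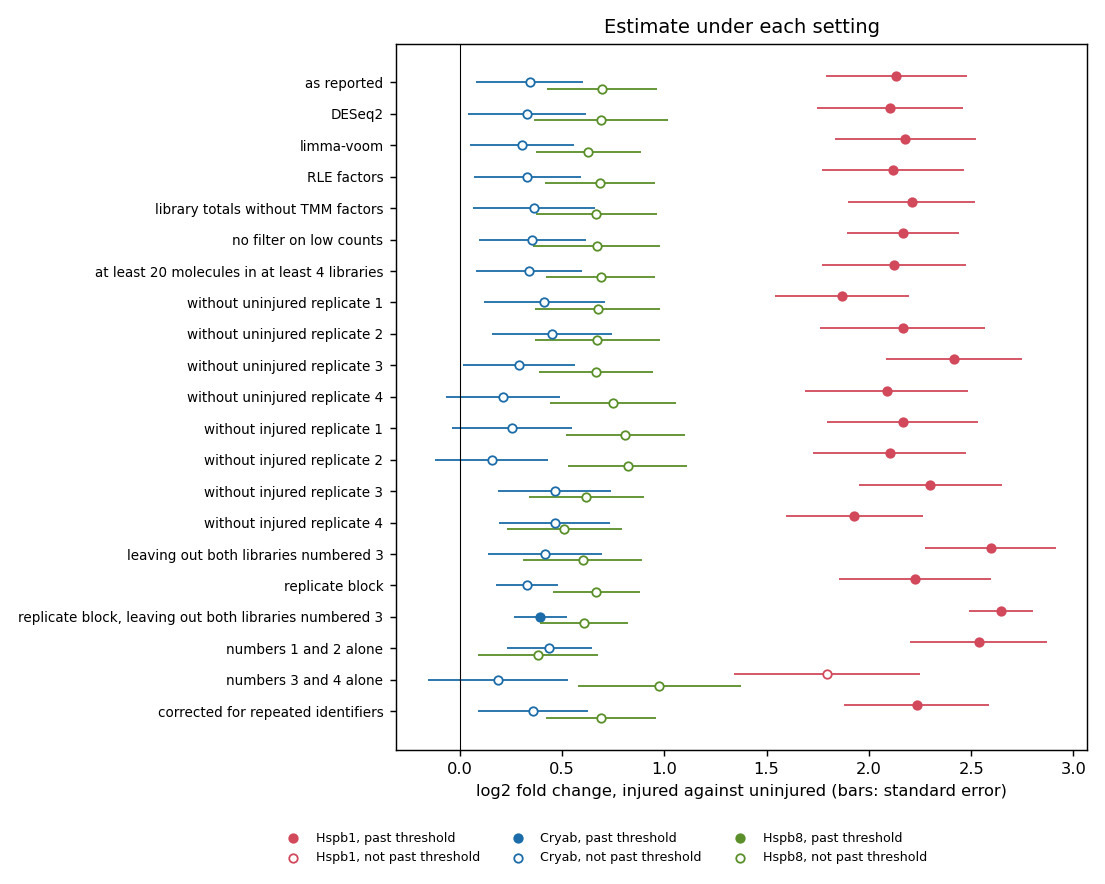
Log2 fold change with standard error (x axis) of the 3 genes under each fit (rows), filled where the gene passed an adjusted p under 0.05. Hspb1 runs from 1.80 to 2.65, Cryab from 0.16 to 0.46 and Hspb8 from 0.38 to 0.98, and all estimates are above 0.

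The pattern of Hspb1 over the 8 libraries was compared with that of every other tested gene by Pearson's r of log2 CPM, as a description. The most similar gene was ENSRNOG00000007457, with r = 0.996 over 8 libraries. Its counts were 6, 8, 5 and 12 molecules in uninjured and 38, 42, 9 and 31 in injured replicates 1 to 4. The next was ENSRNOG00000008465 (r = 0.971), with 126, 157, 77 and 190 molecules in uninjured and 533, 501, 169 and 402 in injured replicates. Both were called higher, and both had their lowest injured count in replicate 3, the shallowest injured library. Hspb8 ranked 217th of 4158 genes in similarity to Hspb1 (r = 0.702) and Cryab 890th (r = 0.315). A large group difference alone gives a high r with Hspb1, and the libraries share their depth and number.

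The deposited table gives identifiers without symbols, and the reference table paired 0 of them with a symbol. The symbols of the 3 members were given with the identifiers. Other small heat shock proteins, the partners Bag3 and Hsp70, heat shock factor targets, and marker genes of astrocytes, microglia, oligodendrocytes, neurons and vessels were therefore not analysed here. Whether the cell make-up of the samples moved with Hspb1 was not tested.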

How the data were processed

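Lower lumbar cord RNA (4 uninjured and 4 injured libraries) was measured by CEL-Seq2, per the labels' protocols. The authors deposited counts, whole numbers of molecules per Ensembl gene without normalization. HISAT2 2.0.4, HTSeq 0.6.0 and build Rnor_6.0 are named in the submitters' processing notes; for identifier collapsing and the annotation release nothing is given in the sources used here. Groups and numbers came from the labels.

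Genes passing filterByExpr (minimum count 10, minimum total 15) were tested with edgeR 4.0.16 (R 4.3.3, TMM, robust quasi-likelihood F test, two-sided, Benjamini-Hochberg adjusted over all tested genes, threshold 0.05); standard errors came from the F statistic. The code was checked on simulated data. DESeq2 1.42.0, limma-voom 3.58.1, other scalings and filters, left-out libraries, a replicate block and an identifier correction (4096 identifiers) were alternatives. Log2 ratios and their differences added 0.5 to each count. The printed and plotted ratios of molecules added nothing. Similarity was computed on log2 CPM (prior count 3).

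Same-numbered libraries deviated together from their group means (r = 0.39, 0.36, 0.17 and 0.45 for numbers 1 to 4). Different numbers gave -0.39 to 0.24, and uninjured 3 correlated with injured 4 (0.16) nearly as with injured 3; numbers 1 and 2 also resembled each other. Numbers were treated as pairs because each same-numbered r exceeded 0.1, on the data and not on a stated design. Some different-numbered r also exceeded 0.1, so this rule does not single out same-numbered pairs. No columns were identical. Named genes were the 3 members and the 2 identifiers most like Hspb1. Members, lists and tests were chosen with earlier results of these data known, and p-values measure the spread between libraries. Plots used matplotlib 3.10.9.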

Additional observations from a re-analysis of the deposited data

Results flagged for a closer look

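In the ratio of Hspb1 to Cryab, injured replicate 4 stood apart from the other 3 injured libraries. Its log2 ratio was 2.43, against 1.15 to 1.27 in replicates 1 to 3. It held the highest Hspb1 level of all libraries (3096 CPM) and a Cryab level of 574 CPM, near the low end of the injured group. The gap exceeded Dixon's critical value for 4 samples, which chance passes in about 1 of 20 groups, and 12 groups of values were examined. Without this library the difference in log2 change between Hspb1 and Cryab was 1.54 in place of 1.85.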

How the results depend on the processing

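The direction of the log2 fold change was the same for each of the 3 genes under all 20 alternatives: 1.80 to 2.65 for Hspb1, 0.16 to 0.46 for Cryab and 0.38 to 0.98 for Hspb8. In numbers 3 and 4 alone Hspb1 (1.80) lost the call and the number of genes called fell to 0. That fit has 2 libraries a group, as does the fit of numbers 1 and 2 alone, in which Hspb1 kept the call. The cause was not tested. With the replicate block and without both libraries numbered 3, Cryab (0.39, edgeR adjusted p = 0.0473) gained it and 2 genes were called; the cause was not tested. The replicate block on all 8 libraries changed no call (2.22 for Hspb1, 0.33 for Cryab, 0.67 for Hspb8). The difference in log2 change was 2.24 (numbers 1 and 2) and 0.70 (numbers 3 and 4) for Hspb1 against Hspb8. For Cryab against Hspb8 it turned from -0.38 to 0.058 in numbers 1 and 2 alone; the cause was not tested. Low counts limit Hspb8 most. Percentiles of uninjured levels were also computed on library totals and without uninjured replicate 3, chosen after seeing the data.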
